A study of Mus musculus with 24 samples.

Results

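CD31+ cells of the mouse colon that carried an Rspo3 reporter were compared with CD31+ cells of the same organ that did not. The comparison rests on 6 of the 24 libraries of the series, 3 of CD31+ Rspo3+ cells and 3 of CD31+ Rspo3- cells, chosen by tissue, CD31 and reporter as the labels give them. Both groups came from C57Bl6 mice of 8 to 12 weeks with an Rspo3 GFP transgene. Both were sorted from stromal cells without Epcam, which marks epithelium, and without CD45, which marks leukocytes. No treatment is named in the labels. CD31 is the endothelial adhesion protein encoded by Pecam1, and the reporter marks cells by GFP, so Rspo3- means without GFP rather than without Rspo3 RNA. The other groups of the series are the same 4 fractions of the small intestine and the CD31- fractions of the colon, and the small intestinal CD31+ cells are used only to show where the colon differs. Nothing in the labels ties a library to a single mouse or to a pool. The p-values thus reflect only how libraries vary within their groups, over all 24 libraries of the series. Part of that variation may be technical.

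Endothelial cells line blood vessels and lymphatic vessels. Lymphatic vessels take up fluid, absorbed fat and immune cells from the tissue; their cells are specified by the transcription factor Prox1 and depend on the receptor VEGFR3, the product of Flt4. Blood vessels are divided into arteries, capillaries and veins, whose cells differ in Notch signaling, in the uptake of lipids and in the adhesion proteins that capture leukocytes. R-spondin 3, the product of Rspo3, is a secreted protein that binds the receptors Lgr4, Lgr5 and Lgr6 and the ligases Rnf43 and Znrf3, and by this raises the response of a cell to Wnt proteins, on which the stem cells of the intestinal crypt depend. The question of the comparison, as far as the title of the series states it, is which endothelial cells of the gut produce R-spondin 3.

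The sort genes were read first. Rspo3 (ENSMUSG00000019880, chromosome 10, 29452416 to 29535867 on the minus strand in GRCm38) measured 15.1, 11.1 and 15.9 CPM in Rspo3- and 357, 409 and 353 CPM in Rspo3+ libraries. The groups did not overlap, and the level without the reporter was 3.77% of the level with it. Without the reporter the level lay close to that of the colonic CD31- Rspo3- cells, which had 14.2 ± 1.73 CPM. Gm48159, an antisense gene that overlaps Rspo3, went from 2.45, 0 and 1.55 CPM to 69.8, 66.1 and 56 CPM. Of the 31-base stretches of Rspo3 transcripts, 12.2% also occur in Gm48159, and reads from that shared part cannot be told apart because the library kit does not mark strand. Of the stretches of Gm48159, 50.1% occur in other genes, 35% in Rspo3, so the value of Gm48159 is uncertain. Pecam1 measured 1468, 1486 and 1061 CPM in Rspo3- and 629, 600.2 and 691 CPM in Rspo3+ libraries, against 10.3 ± 2.22 CPM in colonic CD31- Rspo3- cells, and was lower in Rspo3+ cells (log2 fold change -1.06 ± 0.31 (SE), adjusted p = 0.0181). That call was lost with Rspo3+ library 1 or 2 or Rspo3- library 1 or 2 left out (adjusted p = 0.0698, 0.0652, 0.0578 and 0.0575, with 0.000804 to 0.0698 over all fits). Epcam was at 5.75 to 59.1 CPM and Ptprc, the gene of CD45, at 0.767 to 7.76 CPM over the 6 libraries.

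The libraries held 20755019, 20814963 and 22899519 estimated counts in the Rspo3- group and 15070923, 15669076 and 17632590 in the Rspo3+ group, so that the Rspo3+ libraries were the shallower ones. Levels are given as CPM, library-scaled counts with TMM factors, in the order of libraries 1, 2 and 3 of a group, or as the mean ± SD of the 3. Pairs of means joined by from and to run from Rspo3- to Rspo3+ cells. Fold changes are those of edgeR's quasi-likelihood test over all 24 libraries, as Rspo3+ relative to Rspo3-, and a gene is said to have risen or fallen where its Benjamini-Hochberg adjusted p was under 0.05. Correlations of log2 CPM were 0.967 to 0.980 within the groups and 0.907 to 0.925 between them. Rspo3- library 3 stood apart by a high content of fibroblast and epithelial RNA, with 2467 CPM of the fibroblast gene Dcn where the other Rspo3- libraries had 421 and 471 CPM, and results that rest on it are given with and without it. In bulk libraries, fewer cells of a type and less RNA per cell cannot be told apart.

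Of 19050 genes tested, 9.52% rose and 13.6% fell in Rspo3+ cells, 23.1% in all, and these shares are the background for the counts of gene lists that follow. The lists were chosen with earlier results of these data known, so their counts are descriptions and not independent support. A list count of 0 by edgeR was also 0 at an unadjusted p under 0.05, with DESeq2 and with limma voom, except where stated. The median log2 fold change over all genes tested was -0.05. Changes of at least 4-fold were more often falls, with 490 genes up and 1096 down, and at 16-fold or more the numbers were 154 and 387. The 3 libraries of one group all lay above the 3 of the other for 40.4% of genes tested. The plot of all genes shows the endothelial lists within this background.

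**Figure D1:**
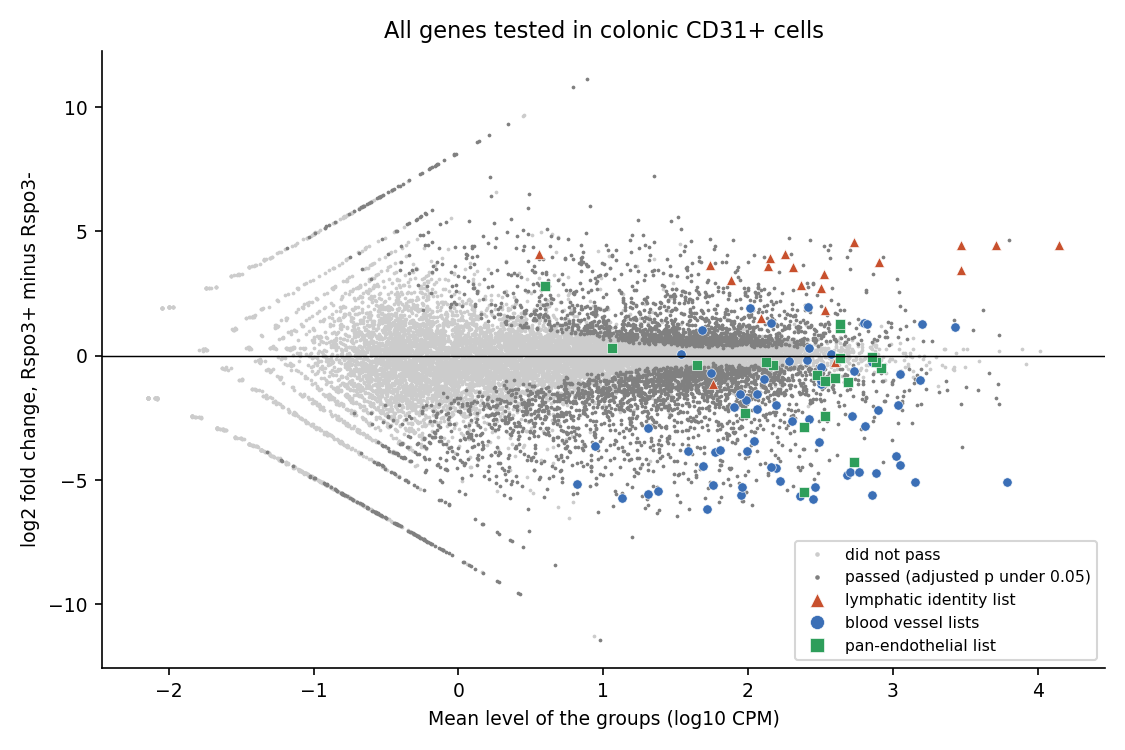
Each point is a gene tested, at the mean CPM of the groups (log10 scale, horizontal) and its log2 fold change in Rspo3+ relative to Rspo3- colonic CD31+ cells (vertical), with 146 genes at 0 in all 6 libraries left out. Triangles (lymphatic identity) lie mostly above 0 and circles (general, arterial, capillary and venous lists) mostly below it, while many squares (pan-endothelial) lie near 0.

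The promoters of 4 genes are shown because Prox1 and Fgl2 rose and Flt1 and Madcam1 fell, and each holds a match to a motif searched. Each runs from 250 bases before to 50 bases after the start of the gene in RefSeq (GRCm38.p6), 5′ to 3′ on the strand of the gene, and capitals mark the motif matches. Prox1 lies at chr1:190170778-190171077, minus strand, Fgl2 at chr5:21372423-21372722, plus strand, Flt1 at chr5:147725962-147726261, minus strand and Madcam1 at chr10:79664309-79664608, plus strand.
Prox1: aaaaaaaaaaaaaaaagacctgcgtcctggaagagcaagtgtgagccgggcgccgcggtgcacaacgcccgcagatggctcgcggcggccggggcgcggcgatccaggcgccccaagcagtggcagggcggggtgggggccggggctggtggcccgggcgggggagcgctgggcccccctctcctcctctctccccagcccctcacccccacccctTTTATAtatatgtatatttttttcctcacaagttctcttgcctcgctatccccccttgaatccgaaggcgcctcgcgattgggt
Fgl2: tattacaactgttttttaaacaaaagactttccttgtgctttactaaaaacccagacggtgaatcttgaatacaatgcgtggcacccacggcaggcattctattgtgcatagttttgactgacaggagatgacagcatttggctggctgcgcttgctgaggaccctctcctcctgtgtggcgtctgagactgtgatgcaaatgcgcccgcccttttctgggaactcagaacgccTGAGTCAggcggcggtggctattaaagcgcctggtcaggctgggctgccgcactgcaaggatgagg
Flt1: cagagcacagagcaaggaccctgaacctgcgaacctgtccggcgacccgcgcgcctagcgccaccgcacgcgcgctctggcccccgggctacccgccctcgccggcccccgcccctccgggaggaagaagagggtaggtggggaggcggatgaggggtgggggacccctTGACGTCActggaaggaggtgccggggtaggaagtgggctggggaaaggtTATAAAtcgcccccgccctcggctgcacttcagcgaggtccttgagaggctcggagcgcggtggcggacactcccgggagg
Madcam1: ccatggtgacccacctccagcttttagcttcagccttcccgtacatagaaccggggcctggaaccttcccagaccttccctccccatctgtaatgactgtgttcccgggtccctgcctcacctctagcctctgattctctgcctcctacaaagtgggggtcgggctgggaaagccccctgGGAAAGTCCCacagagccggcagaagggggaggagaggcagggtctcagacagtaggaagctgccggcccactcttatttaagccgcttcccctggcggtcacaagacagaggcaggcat

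Positions count from 0 at the first transcribed base in RefSeq. That base lies 113 bases from the start of the gene in the GENCODE annotation for Prox1, 31 for Fgl2 and 0 for Flt1 and Madcam1. By the GENCODE starts, the printed Prox1 stretch lies wholly upstream of the gene and the Fgl2 match lies inside it. The Prox1 promoter held the reverse complement of the TATA motif TATAAA at -34, and Flt1 held TATAAA at -31 and the CRE motif TGACGTCA at -81. Fgl2 held a match to the AP-1 motif TGANTCA at -16, and Madcam1 the reverse complement of the NF-kappaB motif at -70. The motifs were searched on both strands in the 12767 promoters of genes tested that RefSeq could be matched to, 307 of them of genes that rose and 744 of genes that fell at least 4-fold. The ETS core CCGGAAG was present in 15.9% of all these promoters, 4.89% of those that rose and 6.59% of those that fell at least 4-fold. The TATA motif was present in 8.44%, 8.14% and 12.1%, the AP-1 motif in 5.3%, 7.17% and 8.2%, the CRE motif in 2.93%, 1.63% and 0.806%, and the NF-kappaB motif in 0.439%, 0% and 0.403%, in the same order. The median number of CpG pairs per promoter was 19 over all genes tested, 11 over the genes that rose and 14 over those that fell at least 4-fold. Over all genes that rose or fell, whatever the size, the ETS core was present in 16.5% and 12.8% and the median number of CpG pairs was 19 and 20. The lower CpG medians were seen for the genes changed at least 4-fold and not over all genes that passed. These are descriptions without a test, and a motif match describes the letters only.

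Genes of lymphatic identity rose nearly as a block. Of 20 listed genes, 18 rose, 1 fell and 1 did not pass, and the median log2 fold change was 3.58 against -0.05 for all genes. The rises numbered 18 in each fit with 1 library left out, and the falls 0 without each library but Rspo3- library 2, without which there was 1. Prox1 (ENSMUSG00000010175, chromosome 1, 190118035 to 190170714 on the minus strand) measured 31.2, 44.9 and 19.8 CPM in Rspo3- and 394, 348 and 391 CPM in Rspo3+ libraries, a rise of 11.8-fold (log2 fold change 3.56 ± 0.40 (SE), adjusted p = 1.63e-06). Flt4, the receptor for the lymphatic growth factor VEGF-C, measured 114, 118 and 97.5 CPM in Rspo3- and 1498, 1167 and 1844 CPM in Rspo3+ libraries and rose 13.7-fold (adjusted p = 6.83e-05). Lyve1, a hyaluronan receptor of initial lymphatics, measured 225, 329 and 227 CPM in Rspo3- and 4738, 6388 and 5851 CPM in Rspo3+ libraries and rose 21.7-fold (adjusted p = 3.68e-06). In each of these genes the groups lay far apart.

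The secreted and surface products of lymphatic endothelium followed. Mmrn1, encoding the matrix protein multimerin 1, measured 434, 519.6 and 399 CPM in Rspo3- and 10467, 8462 and 10836 CPM in Rspo3+ libraries (log2 fold change 4.46 ± 0.61 (SE), adjusted p = 1.61e-05). Reln, which encodes the secreted glycoprotein reelin, measured 39.8, 53.7 and 35.2 CPM in Rspo3- and 1004, 969.7 and 1123 CPM in Rspo3+ libraries (log2 fold change 4.59 ± 0.57 (SE), adjusted p = 5.52e-06). Pdpn, the gene of podoplanin, varied more between the Rspo3- libraries, with 9.48, 10.7 and 29.2 CPM in Rspo3- and 109, 122 and 179 CPM in Rspo3+ libraries (log2 fold change 3.05 ± 0.37 (SE), adjusted p = 3.91e-06), and its highest Rspo3- library was library 3. Other members that rose were Sema3d (from 19.7 ± 8.87 to 341 ± 31.2 CPM, adjusted p = 3.43e-07) and Tbx1, a transcription factor of lymphatic development (from 17.4 ± 4.27 to 265 ± 35.7 CPM, adjusted p = 2.16e-06). Maf, another transcription factor (from 21 ± 7.96 to 254 ± 116 CPM, adjusted p = 1.11e-06), and Thy1 (from 8.1 ± 0.746 to 102 ± 23.5 CPM, adjusted p = 6.12e-09) rose as well. The scavenger receptors Stab1 (from 62.3 ± 13.7 to 604 ± 152 CPM, adjusted p = 0.00123) and Stab2 (0.398 to 6.78 CPM, adjusted p = 0.00356) also rose. Stab2 did not pass with limma on log2(TPM + 1) (adjusted p = 0.0679, with 1.03e-05 to 0.0679 over all fits). Nrp2, the co-receptor of VEGFR3, rose by less (from 149 ± 21.5 to 529.7 ± 93.7 CPM, adjusted p = 4.07e-05).

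Ccl21a, which encodes a chemokine that attracts dendritic cells and T cells through CCR7, had the highest TPM, an abundance per length, of all protein-coding nuclear genes in Rspo3+ cells, at 53081 ± 6689 TPM, against 2525 ± 229 TPM in Rspo3- cells. Near-identical copies of the gene share 80.6% of its 31-base stretches, and the copy annotated as Gm21541 went from 485 ± 38.4 to 12214 ± 2339.7 CPM, so the split between the copies is uncertain. Fgl2, a fibrinogen-like protein, was among the 10 rises with the smallest adjusted p, with 402, 535 and 541 CPM in Rspo3- and 4807, 5523 and 5904 CPM in Rspo3+ libraries (log2 fold change 3.46 ± 0.24 (SE), adjusted p = 4.16e-09).

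Lymphatic RNA was low but present in Rspo3- cells. Their mean level, as a percentage of that in Rspo3+ cells, was 8.46% for Prox1, 7.31% for Flt4, 4.6% for Lyve1, 4.54% for Mmrn1, 4.16% for Reln and 3.77% for Rspo3. The reverse reading gave for blood endothelial RNA in Rspo3+ cells 2.07% of the Rspo3- level for Flt1, 3.6% for Nrp1, 2.95% for Plvap, 2.22% for Sox17 and 3.85% for Selp. Rspo3+ library 1 held the most of such RNA among the Rspo3+ libraries for each of these 5 genes, for example 518 CPM of Plvap against 267 and 267 CPM. Whether this RNA came from cells of the other kind was not tested.

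**Figure D2:**
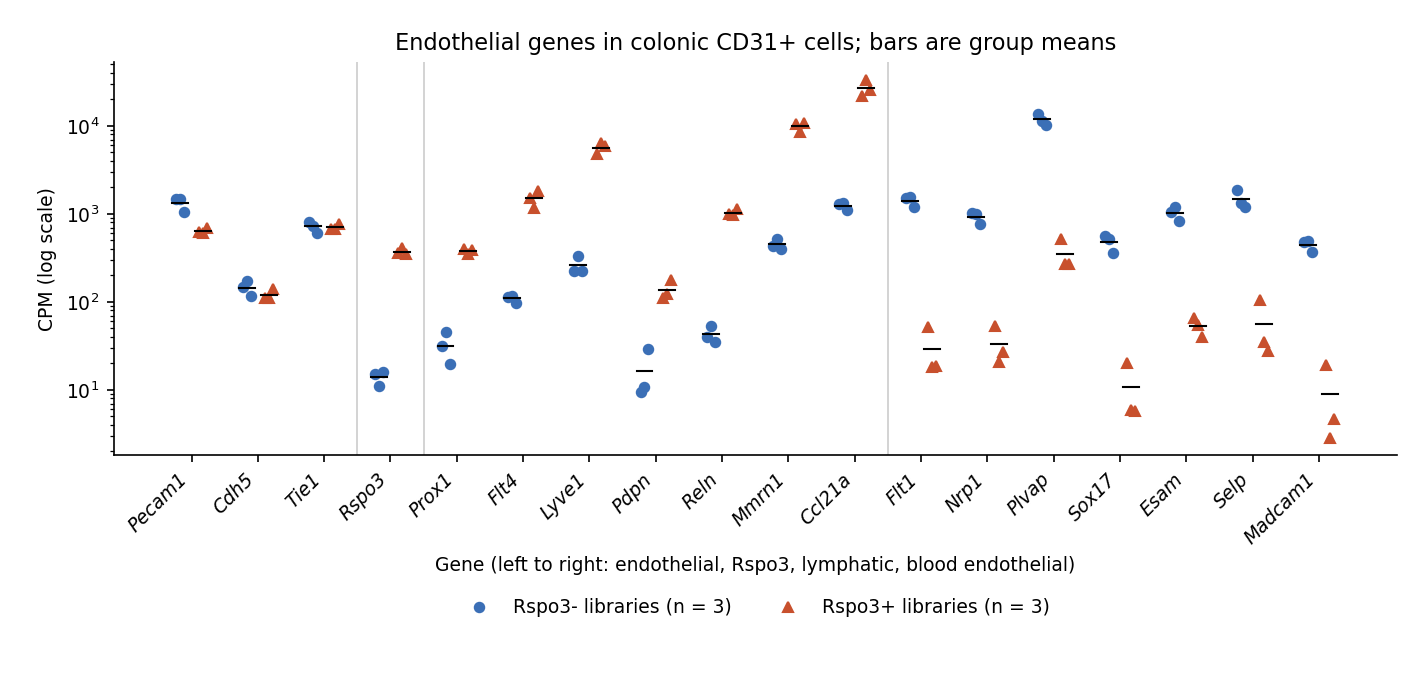
CPM (log scale, vertical) of 18 genes in each library of Rspo3- (circles) and Rspo3+ (triangles) colonic CD31+ cells, with short lines at the means of 3 libraries. Cdh5 and Tie1 overlap or nearly meet, lymphatic genes are higher in all 3 Rspo3+ libraries and blood endothelial genes lower in all 3.

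Sox18 was the member of the lymphatic list that did not pass. It is needed for lymphatic development but is also made by blood vessels. Its levels were 506, 489 and 297 CPM in Rspo3- and 374, 394 and 316 CPM in Rspo3+ libraries (adjusted p = 0.73), and the groups overlapped.

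Genes of lymphatic valves and collecting vessels split. Of 16 genes, 5 rose, 4 fell and 7 did not pass, with a median of 0.11. Among the genes that rose was Foxc2, the forkhead factor of valve formation, with 7.04, 10.6 and 10.4 CPM in Rspo3- and 31.4, 52.9 and 68.9 CPM in Rspo3+ libraries (log2 fold change 2.45 ± 0.59 (SE), adjusted p = 0.0043). Itga9, the integrin subunit of valve leaflets, rose with 32.9, 33 and 36.5 CPM in Rspo3- and 198, 167 and 209.6 CPM in Rspo3+ libraries (log2 fold change 2.49 ± 0.26 (SE), adjusted p = 5.88e-07). Both were without overlap between the groups. Nfatc1 (from 122 ± 30.7 to 195 ± 11.2 CPM, adjusted p = 0.0226) and Foxp2 (from 5.67 ± 3.88 to 15.1 ± 5.11 CPM, adjusted p = 0.0136) rose by less. Nfatc1 lost its call with Rspo3+ library 3 or Rspo3- library 2 or 3 left out (adjusted p = 0.0743, 0.0744 and 0.076, with 0.00841 to 0.076 over all fits). Foxp2 lost it in the fit of these 6 libraries alone, in the fit of the 12 CD31+ libraries, with limma on log2(TPM + 1) and with Rspo3+ library 2 or Rspo3- library 1 left out (adjusted p = 0.0879, 0.05, 0.0555, 0.0688 and 0.0651, with 0.000933 to 0.0879 over all fits). Among the genes that fell were Gja4, encoding connexin 37 (from 250.4 ± 56.7 to 62.6 ± 11.3 CPM, adjusted p = 0.000882), and Efnb2, encoding ephrin B2 (from 171 ± 24.6 to 58.3 ± 7.64 CPM, adjusted p = 0.00119). Gata2 (from 234 ± 53.2 to 69.2 ± 5.68 CPM, adjusted p = 0.000786) and Adamts1, a secreted protease (from 1814 ± 324 to 171 ± 73.6 CPM, adjusted p = 3.35e-07), fell too. Gja1, Piezo1, Foxc1 and Fn1 did not pass, with log2 fold changes of -0.43, 0.15, 0.06 and -0.14, and Cldn11, a valve marker, was near 0 in every library (0, 0.434 and 0.0431 CPM and 1.02, 0.192 and 1.08 CPM).

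Several core endothelial genes did not pass. Of 20 pan-endothelial genes, 2 rose, 8 fell and 10 did not pass (median -0.43). Cdh5, which encodes VE-cadherin, measured 147, 173 and 117 CPM in Rspo3- and 111, 111 and 139 CPM in Rspo3+ libraries (log2 fold change -0.27 ± 0.45 (SE), adjusted p = 0.721). Tie1, an endothelial receptor kinase, measured 818, 737 and 609 CPM in Rspo3- and 674, 673 and 766 CPM in Rspo3+ libraries (log2 fold change -0.03 ± 0.34 (SE), adjusted p = 0.963). Egfl7, Emcn, Mmrn2, Erg and Fli1 also did not pass, with log2 fold changes between -0.50 (Egfl7) and -0.11 (Emcn). Cldn5, the main claudin of endothelial tight junctions, measured 229, 309 and 225 CPM in Rspo3- and 530.4, 721 and 598 CPM in Rspo3+ libraries without overlap but did not pass (adjusted p = 0.0583). It passed, as higher, in 7 of 14 alternatives (adjusted p = 0.000203 to 0.154 over all fits).

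Several genes often used as endothelial markers were strongly reduced in Rspo3+ cells. Esam, an adhesion molecule of endothelial junctions, measured 1051, 1203 and 825 CPM in Rspo3- and 64.8, 54.2 and 40.4 CPM in Rspo3+ libraries, 19.3-fold lower (log2 fold change -4.27 ± 0.37 (SE), adjusted p = 6.67e-08). Sox17 measured 555, 522 and 361 CPM in Rspo3- and 20.4, 5.88 and 5.69 CPM in Rspo3+ libraries, 45-fold lower (log2 fold change -5.49 ± 0.62 (SE), adjusted p = 1.63e-06). Sox7 (from 427 ± 108 to 58.2 ± 14.3 CPM, adjusted p = 1.07e-05), the phosphatase gene Ptprb (from 574 ± 112 to 106 ± 19.9 CPM, adjusted p = 0.00157) and Cyyr1 (from 159.7 ± 40.2 to 32 ± 5 CPM, adjusted p = 0.00181) fell as well. Sox18, of the same family as Sox7 and Sox17, did not pass, as given above. Tek, the angiopoietin receptor, fell 2.07-fold (from 663 ± 123 to 320.4 ± 22.6 CPM, adjusted p = 0.0115). Eng fell 1.72-fold (381 to 222 CPM, adjusted p = 0.0346) and Ets1 1.85-fold (520.3 to 281 CPM, adjusted p = 0.0165). Eng lost its call in the fit of the 12 CD31+ libraries, with limma on log2(TPM + 1) and with Rspo3+ library 1 or 2 or Rspo3- library 1 or 2 left out (adjusted p = 0.0576, 0.0607, 0.141, 0.132, 0.125 and 0.0679, with 0.0124 to 0.141 over all fits). Ets1 lost it with Rspo3+ library 1 or 2 or Rspo3- library 1 left out (adjusted p = 0.0675, 0.0592 and 0.0988, with 0.00378 to 0.0988 over all fits). Ecscr rose (from 272 ± 66.3 to 590.2 ± 160.0 CPM, adjusted p = 0.00428), and so did the transcription factor gene Lyl1, from 1.85, 0.434 and 0.733 CPM to 5.89, 7.1 and 7.96 CPM (adjusted p = 0.0299). Its call was lost with Rspo3+ library 2 or 3 or Rspo3- library 2 or 3 left out (adjusted p = 0.0624, 0.0724, 0.112 and 0.0895, with 1.28e-06 to 0.112 over all fits).

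Genes shared by all blood vessels were among the most reduced. Of 15, 0 rose, 11 fell and 4 did not pass, with a median of -4.05. Flt1, the receptor VEGFR1 (ENSMUSG00000029648, chromosome 5, 147561604 to 147726011 on the minus strand), measured 1506, 1549 and 1199 CPM in Rspo3- and 51.4, 18.2 and 18.5 CPM in Rspo3+ libraries, 48.3-fold lower (log2 fold change -5.59 ± 0.60 (SE), adjusted p = 8.13e-07). Nrp1, a co-receptor of VEGFR2, measured 1031, 999 and 758 CPM in Rspo3- and 52.9, 20.9 and 26.7 CPM in Rspo3+ libraries (log2 fold change -4.79 ± 0.35 (SE), adjusted p = 9.59e-09), opposite to its relative Nrp2. The prostaglandin transporter gene Slco2a1 (from 978 ± 199 to 38 ± 21.7 CPM, adjusted p = 6.73e-07), Tspan7 (from 299 ± 51 to 13.2 ± 5.07 CPM, adjusted p = 1.06e-08) and Cd93 (from 201 ± 44.5 to 18.9 ± 5.43 CPM, adjusted p = 0.000274) fell. So did Notch4 (from 111 ± 30.9 to 7.64 ± 1.03 CPM, adjusted p = 1.36e-07) and Cd34 (from 878 ± 103 to 163 ± 59.1 CPM, adjusted p = 3.95e-07). Ly6c1 and Ly6a fell as well (from 2766 ± 540.2 to 81.2 ± 30.5 CPM, adjusted p = 5.15e-09) and (from 1979 ± 408 to 119.8 ± 37.5 CPM, adjusted p = 3.37e-08), but 46.8% and 31.9% of their 31-base stretches occur in other genes, so their values are uncertain.

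The 4 listed blood endothelial genes that did not pass were Kdr, Podxl, Icam2 and Cd300lg. Kdr, the receptor VEGFR2, measured 1741, 1274 and 1193 CPM in Rspo3- and 844, 754 and 924 CPM in Rspo3+ libraries (log2 fold change -0.74 ± 0.70 (SE), adjusted p = 0.496). It passed, as lower, in the fit of the 6 colonic CD31+ libraries (adjusted p = 0.0229) and in that of the 12 CD31+ libraries (adjusted p = 0.0201), with 0.0201 to 0.701 over all fits. Podxl, a sialomucin of the luminal surface, measured 883, 838 and 601 CPM in Rspo3- and 625, 527 and 803 CPM in Rspo3+ libraries (adjusted p = 0.723). Icam2 had log2 fold change -0.20 and Cd300lg -0.18. Kdr had the largest difference of the 4, 1.67-fold, and Cd34 the smallest fall of the genes that passed, 5.37-fold.

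Most capillary genes fell. Of 18, 1 rose, 15 fell and 2 did not pass (median -3.82). Plvap, which forms the diaphragms of fenestrated capillaries, measured 13773, 11463 and 10333 CPM in Rspo3- and 518, 267 and 267 CPM in Rspo3+ libraries, 33.8-fold lower (log2 fold change -5.08 ± 0.47 (SE), adjusted p = 1.47e-07). Cd36, a fatty acid receptor, measured 928, 1453 and 1011 CPM in Rspo3- and 57.8, 43.5 and 31.5 CPM in Rspo3+ libraries (log2 fold change -4.67 ± 0.61 (SE), adjusted p = 8.77e-06). Rgcc (from 564 ± 82.6 to 14.5 ± 1.31 CPM, adjusted p = 4.87e-09) and Aplnr, the apelin receptor (from 175 ± 37.1 to 3.59 ± 1.58 CPM, adjusted p = 1.73e-06), fell by more than Cd36 did. The apelin gene Apln (from 39.8 ± 7.67 to 0.828 ± 1.05 CPM, adjusted p = 0.0016), the tip cell marker Esm1 (from 177 ± 36.3 to 4.61 ± 3.13 CPM, adjusted p = 1.14e-05) and the glycerol channel gene Aqp7 (from 26.4 ± 7.91 to 0.503 ± 0.548 CPM, adjusted p = 2.55e-05) did so too. Fabp4 (from 2146 ± 451 to 101 ± 23.2 CPM, adjusted p = 4.81e-07) and Fabp5 (from 120.4 ± 25.2 to 8.72 ± 0.714 CPM, adjusted p = 6.32e-06), which encode fatty acid binding proteins, fell as well. Car4, encoding a carbonic anhydrase on the luminal membrane, fell by less (from 188 ± 16.9 to 42.2 ± 9.49 CPM, adjusted p = 0.00448).

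Gpihbp1 went against the capillary list. It encodes the protein that carries lipoprotein lipase across endothelium. It measured 111, 109.6 and 100.02 CPM in Rspo3- and 316, 504 and 418 CPM in Rspo3+ libraries, 3.87-fold higher (log2 fold change 1.95 ± 0.37 (SE), adjusted p = 0.000696), and the groups did not overlap. Rbp7, a retinol binding protein gene, did not pass (from 168 ± 31.6 to 88.9 ± 11.2 CPM, adjusted p = 0.128), but did, as lower, in 3 of 14 alternatives (adjusted p = 0.00357 to 0.309 over all fits).

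Of 20 arterial genes, 3 rose, 13 fell and 4 did not pass (median -1.67). Gja5, encoding connexin 40, measured 118, 119 and 69.1 CPM in Rspo3- and 1.62, 1.66 and 1.03 CPM in Rspo3+ libraries, 71-fold lower (log2 fold change -6.15 ± 0.64 (SE), adjusted p = 5.84e-07). Sema3g (from 46.8 ± 7.06 to 1.07 ± 0.618 CPM, adjusted p = 0.000238), Alox12 (from 112 ± 19.3 to 3.01 ± 0.881 CPM, adjusted p = 8.38e-07), and Vegfc, the ligand of VEGFR3 (from 93.2 ± 27.1 to 4.33 ± 2.71 CPM, adjusted p = 1.47e-07), fell. The Notch effector gene Hey2 (from 16.4 ± 5.71 to 1.3 ± 0.587 CPM, adjusted p = 1.15e-05) and the chemokine gene Cxcl12 (from 1126 ± 211 to 159.9 ± 22.6 CPM, adjusted p = 3.45e-06) fell as well. Smaller falls were those of Jag1 (from 131 ± 29.8 to 44.7 ± 12.4 CPM, adjusted p = 0.00379) and Fbln5, an elastic fiber protein gene (from 442 ± 86.4 to 199 ± 37.2 CPM, adjusted p = 0.00181). Dll4, a Notch ligand gene, did not pass at 509, 409.7 and 355 CPM in Rspo3- and 179, 229 and 224 CPM in Rspo3+ libraries (adjusted p = 0.148), although the groups did not overlap and it passed, as lower, in 4 of 14 alternatives (adjusted p = 0.00143 to 0.33 over all fits). Hey1 did not pass either, with log2 fold change -0.31. Unc5b (from 31.1 ± 2.65 to 64.6 ± 7.87 CPM, adjusted p = 0.000979), Ltbp4, which encodes a latent TGF-beta binding protein (from 1675 ± 329.6 to 3728 ± 922 CPM, adjusted p = 0.00482), and Stmn2 (from 82.4 ± 14.1 to 206 ± 20.3 CPM, adjusted p = 0.0122) rose.

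Venous genes moved in both directions. Of 17, 3 rose, 10 fell and 4 did not pass (median -0.97). Genes of leukocyte capture were among those that fell. Ackr1, a chemokine-binding receptor, measured 628, 548 and 469 CPM in Rspo3- and 21.7, 2.49 and 6.17 CPM in Rspo3+ libraries (log2 fold change -5.76 ± 0.77 (SE), adjusted p = 1.33e-05). Selp, encoding P-selectin, measured 1876, 1315 and 1199 CPM in Rspo3- and 106, 34.9 and 27.8 CPM in Rspo3+ libraries (log2 fold change -4.70 ± 0.93 (SE), adjusted p = 0.000867). Madcam1, the addressin that binds gut-homing lymphocytes, measured 482, 493 and 370.3 CPM in Rspo3- and 19.1, 2.88 and 4.71 CPM in Rspo3+ libraries (log2 fold change -5.66 ± 0.84 (SE), adjusted p = 4.02e-05). No Rspo3+ library reached the lowest Rspo3- library for any of them. Sele (from 275 ± 66.4 to 12.5 ± 11.7 CPM, adjusted p = 0.00024), Vwf (from 321 ± 64.4 to 9.8 ± 6.64 CPM, adjusted p = 4.62e-06), Vcam1 (from 348 ± 83.1 to 56.6 ± 50.6 CPM, adjusted p = 0.000326) and Icam1 (from 2052 ± 439 to 1047 ± 99.5 CPM, adjusted p = 0.00426) fell, Icam1 by only 1.96-fold.

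The venous genes that rose were Nr2f2, Ackr3 and Cd9. Nr2f2, the gene of COUP-TFII, which is required for venous fate and for Prox1 expression, measured 42.6, 52.2 and 35.5 CPM in Rspo3- and 153, 196 and 143 CPM in Rspo3+ libraries, 3.78-fold higher (log2 fold change 1.92 ± 0.22 (SE), adjusted p = 1.93e-06). Ackr3, a scavenger receptor for CXCL12 and adrenomedullin, rose (from 360.4 ± 32 to 907 ± 105 CPM, adjusted p = 4.02e-05), and so did Cd9, a tetraspanin gene (from 934 ± 40.1 to 2267 ± 216 CPM, adjusted p = 0.000377). Ephb4, Lepr and Aqp1 did not pass, with log2 fold changes of 0.31, 0.06 and 1.26. Aqp1 passed, as higher, in 6 of 14 alternatives (adjusted p = 0.00153 to 0.163 over all fits).

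**Figure D3:**
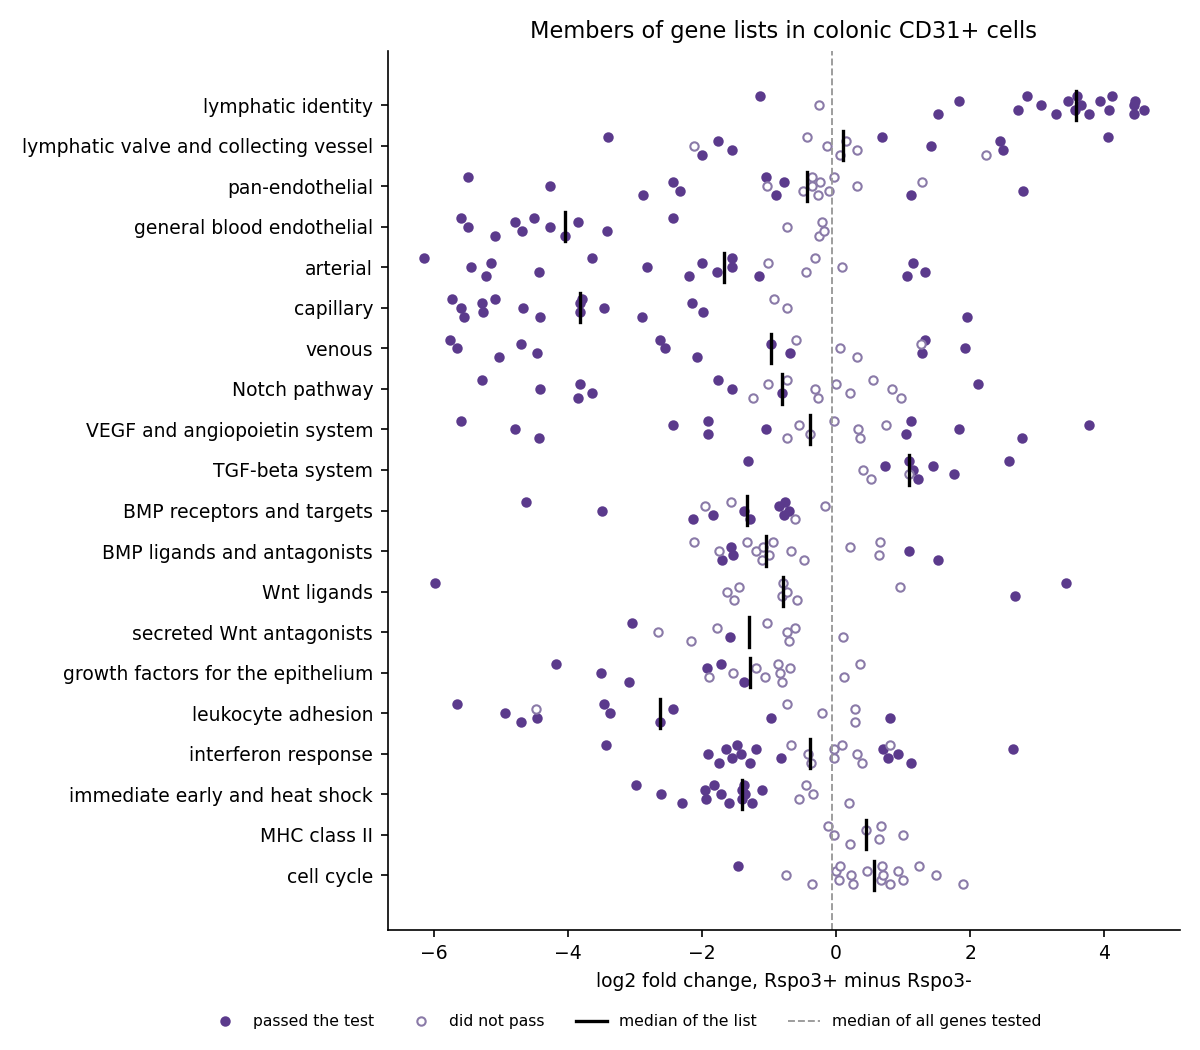
Log2 fold change (horizontal) of each tested member of 20 gene lists, filled where it passed the test and open where it did not, with a bar at the median of the list and a dashed line at the median of all genes. The lymphatic identity list has its median at 3.58 and the general blood endothelial and capillary lists at -4.05 and -3.82.

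Transcription factors divided along the same line. Of 37 listed, 11 rose and 16 fell (median -0.67), and the falls numbered 10 without Rspo3+ library 2. Beside Prox1, Nr2f2, Maf, Tbx1 and Foxc2, the factors Meox1 (from 75 ± 9.97 to 216 ± 13.6 CPM, adjusted p = 3.91e-06) and Tshz2 (from 77.5 ± 8.61 to 185 ± 20.6 CPM, adjusted p = 1.64e-05) rose, although 67.2% of the 31-base stretches of Tshz2 occur in other genes. Meox2, the relative of Meox1, fell (from 35.8 ± 12 to 4.81 ± 2.41 CPM, adjusted p = 0.0131) and lost its call with Rspo3+ library 2 or 3 left out (adjusted p = 0.0639 and 0.054, with 3.59e-05 to 0.0639 over all fits). Lhx6 measured 39.2, 47.8 and 28.3 CPM in Rspo3- and 0.421, 0.575 and 0.65 CPM in Rspo3+ libraries, 1 of the 12 largest falls (log2 fold change -6.11 ± 0.69 (SE), adjusted p = 1.57e-06). Mecom (from 84.8 ± 18.8 to 3.08 ± 0.619 CPM, adjusted p = 0.000168), Tcf15 (from 185 ± 48.6 to 13.1 ± 1.15 CPM, adjusted p = 1.15e-08) and Foxf1, a factor of the gut vasculature (from 171 ± 51.5 to 18.7 ± 2.84 CPM, adjusted p = 7.86e-07), fell strongly. Nkx2-3, the homeobox factor that gut venules need for Madcam1, had the smallest adjusted p of all falls and measured 438, 414 and 427 CPM in Rspo3- and 23, 14.5 and 19.3 CPM in Rspo3+ libraries (log2 fold change -4.49 ± 0.21 (SE), adjusted p = 7.09e-11). Foxp1, Bcl6b, Hhex and Foxc1 did not pass.

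The R-spondin and Wnt genes were read next, as the signals to the crypt. Of 7 R-spondin and receptor genes tested, 2 rose (Rspo3 and Lgr5), 1 fell (Znrf3) and 4 did not pass. The cells were sorted by the Rspo3 reporter, so the rise of Rspo3 was set by the sort. The other R-spondins were near 0: Rspo1 measured 0.0998, 0.531 and 1.81 CPM in Rspo3- and 0.601, 0.128 and 0.163 CPM in Rspo3+ libraries, and Rspo4 had too few counts to test. Rspo2 measured 0, 0 and 0.345 CPM in Rspo3- and 0.0601, 0 and 0 CPM in Rspo3+ libraries. Per length, Rspo3 stood at 182 ± 8.71 TPM and Rspo1 at 0.267 ± 0.255 TPM in Rspo3+ cells. Lgr4, the R-spondin receptor of most tissues, measured 11.6, 12.5 and 13.9 CPM in Rspo3- and 13.6, 10.7 and 14.4 CPM in Rspo3+ libraries (log2 fold change 0.02 ± 0.27 (SE), adjusted p = 0.973). Lgr5 was low, at 0, 0.675 and 0.259 CPM in Rspo3- and 3.19, 3 and 1.84 CPM in Rspo3+ libraries. Its rise (log2 fold change 3.07 ± 0.92 (SE), adjusted p = 0.02) was lost in the fit of these 6 libraries alone and with Rspo3- library 1 or 3 left out (adjusted p = 0.0587, 0.0573 and 0.0643, with 0.00126 to 0.0643 over all fits). Znrf3 had 3.64, 7.86 and 2.46 CPM in Rspo3- and 1.32, 2.88 and 1.84 CPM in Rspo3+ libraries (log2 fold change -1.21 ± 0.43 (SE), adjusted p = 0.0461). Its fall was lost with limma voom, with no filter, in the fit of these 6 libraries alone, in the fit of the 12 CD31+ libraries, with limma on log2(TPM + 1) and with Rspo3+ library 1 or 3 or Rspo3- library 1 or 2 left out (adjusted p = 0.0918, 0.131, 0.147, 0.128, 0.104, 0.184, 0.128, 0.0533 and 0.356, with 0.0203 to 0.356 over all fits).

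Of 11 Wnt ligands tested, 2 rose, 1 fell and 8 did not pass, and the falls numbered 0 without Rspo3+ library 2 or Rspo3+ library 3 and 3 without Rspo3- library 1. Wnt2 measured 0.599, 3.57 and 3.15 CPM in Rspo3- and 14.4, 19.4 and 13.2 CPM in Rspo3+ libraries, 6.37-fold higher (log2 fold change 2.67 ± 0.50 (SE), adjusted p = 0.000525). Wnt9b measured 0.799, 0.579 and 0.259 CPM in Rspo3- and 8.66, 2.81 and 6.23 CPM in Rspo3+ libraries (log2 fold change 3.43 ± 0.92 (SE), adjusted p = 0.0114). Both were without overlap. Wnt5a (from 13.8 ± 14.5 to 7.94 ± 1.24 CPM, adjusted p = 0.38), Wnt4 (from 11 ± 11.1 to 4.03 ± 1.25 CPM, adjusted p = 0.058) and Wnt2b (from 3.37 ± 4.49 to 2.26 ± 0.913 CPM, adjusted p = 0.661) did not pass. Wnt4 passed, as lower, in 3 of 14 alternatives (adjusted p = 0.00823 to 0.848 over all fits). Wnt16 was at 0 in all Rspo3+ libraries and at 0.15, 0.965 and 0.173 CPM in the Rspo3- libraries (adjusted p = 0.0285). That call was lost with Rspo3+ library 1, 2 or 3 or Rspo3- library 2 left out (adjusted p = 0.0738, 0.077, 0.0815 and 0.111, with 0.00587 to 0.111 over all fits).

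Of 10 secreted Wnt antagonists, none rose by edgeR and 2 fell. Apcdd1, a membrane-bound inhibitor of Wnt signaling, measured 10.6, 7.29 and 15.8 CPM in Rspo3- and 1.86, 1.47 and 0.758 CPM in Rspo3+ libraries (log2 fold change -3.04 ± 0.38 (SE), adjusted p = 5.34e-06). Dkk2 measured 19.9, 23.3 and 8.37 CPM in Rspo3- and 10.3, 3.58 and 3.36 CPM in Rspo3+ libraries (log2 fold change -1.58 ± 0.56 (SE), adjusted p = 0.0468). Its call was lost in the fit of these 6 libraries alone, in the fit of the 12 CD31+ libraries and with Rspo3+ library 2 or 3 or Rspo3- library 1 or 2 left out (adjusted p = 0.072, 0.0973, 0.168, 0.171, 0.117 and 0.154, with 0.0144 to 0.171 over all fits). Dkk3 and Sfrp1 did not pass (from 96.8 ± 81 to 47.4 ± 5.34 CPM, adjusted p = 0.0519) and (from 74.3 ± 77.8 to 45.5 ± 13 CPM, adjusted p = 0.381), and both had their highest level in Rspo3- library 3 (190.2 and 164 CPM). Dkk3 passed, as lower, in 4 of 14 alternatives (adjusted p = 0.0104 to 0.981 over all fits, the highest without Rspo3- library 3).

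Wnt target genes in the endothelial cells themselves did not move one way. Of 12, 2 rose and 5 fell (median -0.77), and the genes that fell numbered 3 without Rspo3+ library 1 or Rspo3+ library 3 or Rspo3- library 1 or Rspo3- library 3, those that rose 1 without Rspo3- library 1 or Rspo3- library 3. Axin2, the most general target, measured 0.799, 1.3 and 1.25 CPM in Rspo3- and 0.722, 1.66 and 0.65 CPM in Rspo3+ libraries (log2 fold change -0.15 ± 0.65 (SE), adjusted p = 0.907). Nkd1 went from 10.6 ± 2.76 to 17.5 ± 4.89 CPM (adjusted p = 0.142) and Myc from 101 ± 16.1 to 80.4 ± 9.66 CPM (adjusted p = 0.433). None of the 3 passed. Ccnd1, encoding cyclin D1, measured 138, 116 and 128 CPM in Rspo3- and 264, 337 and 384 CPM in Rspo3+ libraries and rose (log2 fold change 1.36 ± 0.30 (SE), adjusted p = 0.00212). Tcf7 fell from a low level (from 5.33 ± 1.06 to 1.03 ± 0.243 CPM, adjusted p = 0.00469). Sox17, which fell with the blood endothelial genes, is also on this list.

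BMP proteins oppose Wnt signaling along the crypt, and secreted antagonists hold them back near its base. Of 18 BMP ligands and antagonists, 2 rose and 3 fell (median -1.05). With 1 library left out, the genes that rose numbered 1 without Rspo3+ library 1 or Rspo3- library 1 or Rspo3- library 2 and 4 without Rspo3- library 3, and those that fell 1 without Rspo3- library 3. Bmp2 measured 32.3, 34.5 and 70.1 CPM in Rspo3- and 13.6, 13.2 and 15.4 CPM in Rspo3+ libraries, 3.24-fold lower (log2 fold change -1.70 ± 0.35 (SE), adjusted p = 0.0012). Bmp4 measured 50.2, 53.8 and 163 CPM in Rspo3- and 32.3, 33 and 25.2 CPM in Rspo3+ libraries (log2 fold change -1.56 ± 0.38 (SE), adjusted p = 0.00482). Its call was lost with Rspo3- library 3 left out (adjusted p = 0.0913, with 0.000293 to 0.0913 over all fits). Twsg1, which modulates BMP binding, rose (from 142 ± 78.6 to 299.98 ± 18.3 CPM, adjusted p = 0.00427). Grem1, the BMP antagonist of crypt-base fibroblasts, measured 1.6, 5.55 and 28.8 CPM in Rspo3- and 36.7, 10.2 and 9.43 CPM in Rspo3+ libraries (log2 fold change 0.64 ± 0.64 (SE), adjusted p = 0.526) and did not pass. It passed without Rspo3- library 3 (adjusted p = 0.00439, with 0.00439 to 0.932 over all fits). Bmp6 and Fstl1 went from 58.5 ± 21.2 to 41.8 ± 12.3 CPM and from 270.4 ± 75.9 to 313 ± 18 CPM and did not pass.

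Of 14 BMP receptors and targets, none rose by edgeR, 10 fell and 4 did not pass (median -1.33). The inhibitory Smad genes, targets of the pathway, fell most: Smad6 measured 93.3, 68.8 and 87.7 CPM in Rspo3- and 1.92, 2.75 and 5.36 CPM in Rspo3+ libraries, 24.7-fold lower (log2 fold change -4.63 ± 0.31 (SE), adjusted p = 3.94e-09). Smad7 measured 63.7, 48.5 and 43.3 CPM in Rspo3- and 5.41, 3.32 and 5.04 CPM in Rspo3+ libraries (log2 fold change -3.49 ± 0.37 (SE), adjusted p = 7.91e-07). Id1 (from 511 ± 69.2 to 198 ± 27.2 CPM, adjusted p = 0.000656), Id2 (from 203 ± 12.1 to 119 ± 12.5 CPM, adjusted p = 0.000497) and Id3 (from 1391 ± 110.3 to 389 ± 24.3 CPM, adjusted p = 1.39e-06), which encode inhibitors of helix-loop-helix factors, fell as well. Acvrl1, the endothelial receptor ALK1, fell 4.4-fold (from 541 ± 47.7 to 123 ± 10.4 CPM, adjusted p = 6.07e-08), while Acvr1 did not pass (from 16 ± 2.3 to 14.2 ± 2.55 CPM, adjusted p = 0.718).

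Of 16 tested growth factors that act on the epithelium, none rose by edgeR and 6 fell (median -1.29). Kitl, the ligand of the receptor KIT, measured 161, 109.7 and 96 CPM in Rspo3- and 11.7, 3.32 and 5.25 CPM in Rspo3+ libraries, 18.1-fold lower (log2 fold change -4.18 ± 0.40 (SE), adjusted p = 1.87e-07). Hbegf, a ligand of the EGF receptor, measured 199.7, 136 and 114 CPM in Rspo3- and 21.3, 7.86 and 10.2 CPM in Rspo3+ libraries (log2 fold change -3.51 ± 0.37 (SE), adjusted p = 7.28e-07). Fgf1 fell (from 15.5 ± 1.47 to 1.83 ± 1.39 CPM, adjusted p = 2.09e-05). Egf, Tgfa, Areg, Btc, Hgf, Igf1, Fgf7 and Fgf10 did not pass. Igf1 went from 33.4 ± 20.4 to 16 ± 9.12 CPM (adjusted p = 0.0542) and Fgf10 from 5.76 ± 5.6 to 1.97 ± 2.06 CPM (adjusted p = 0.26).

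Receptors and ligands of the VEGF and angiopoietin system moved in opposite directions. Of 19, 5 rose, 7 fell and 7 did not pass (median -0.38). Flt4 and Nrp2, the lymphatic receptor pair, rose and Flt1 and Nrp1 fell, with the values given above. Pgf, encoding placental growth factor, a ligand of VEGFR1, measured 6.54, 14.5 and 13.2 CPM in Rspo3- and 63.9, 82.3 and 86.6 CPM in Rspo3+ libraries, 6.8-fold higher (log2 fold change 2.76 ± 0.27 (SE), adjusted p = 3.08e-07). The RNA of its receptor was 48.3-fold lower in the same cells. Vegfa (from 60.7 ± 17.4 to 16.1 ± 7.71 CPM, adjusted p = 8.82e-05) and Vegfc fell. Vegfb rose (from 10.1 ± 1.69 to 21 ± 5.32 CPM, adjusted p = 0.0103) and lost its call with Rspo3- library 1 left out (adjusted p = 0.0583, with 0.00136 to 0.0583 over all fits).

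Of 19 Notch pathway genes, 1 rose, 8 fell and 10 did not pass (median -0.81). The receptor gene Notch4 measured 146, 98.2 and 87.7 CPM in Rspo3- and 8.12, 6.46 and 8.34 CPM in Rspo3+ libraries (log2 fold change -3.85 ± 0.36 (SE), adjusted p = 1.36e-07). The ligand gene Jag2 measured 127, 166 and 76.9 CPM in Rspo3- and 9.56, 2.88 and 4.93 CPM in Rspo3+ libraries (log2 fold change -4.41 ± 0.60 (SE), adjusted p = 1.6e-05). Dll1, another ligand gene, fell (from 94 ± 6.38 to 27.6 ± 2.77 CPM, adjusted p = 5.93e-05). Notch2 was the only member that rose, at 6.54, 5.4 and 9.06 CPM in Rspo3- and 33.5, 26.1 and 31.3 CPM in Rspo3+ libraries (log2 fold change 2.11 ± 0.47 (SE), adjusted p = 0.0025), without overlap.

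Most genes of the TGF-beta list rose. Of 11, 7 rose, 1 fell and 3 did not pass (median 1.09). Tgfb3 measured 30.2, 24.2 and 42.1 CPM in Rspo3- and 183, 193 and 199.9 CPM in Rspo3+ libraries, 5.96-fold higher (log2 fold change 2.58 ± 0.28 (SE), adjusted p = 1.17e-06). Tgfb2 measured 34, 32.3 and 48.6 CPM in Rspo3- and 55, 93.2 and 163 CPM in Rspo3+ libraries (log2 fold change 1.44 ± 0.31 (SE), adjusted p = 0.00185). Tgfbi, a matrix protein gene named for its response to TGF-beta, rose (from 123 ± 40.0 to 417 ± 93.6 CPM, adjusted p = 0.000101), as did Ltbp3, which encodes a latent TGF-beta binding protein (from 59.8 ± 21.7 to 139 ± 13.9 CPM, adjusted p = 0.00339). Tgfbr1, a receptor gene, fell (from 45.7 ± 6.32 to 18.4 ± 7.74 CPM, adjusted p = 0.00237).

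Among guidance genes, 5 of 29 semaphorin, plexin and neuropilin genes rose and 12 fell (median -0.96). Sema3a, whose product repels axons and acts on lymphatic valves, measured 2.4, 11.8 and 10.7 CPM in Rspo3- and 118, 102 and 112 CPM in Rspo3+ libraries, 13.3-fold higher (log2 fold change 3.74 ± 0.53 (SE), adjusted p = 2.29e-05). Sema3d rose to a similar degree and Sema3g fell, with values given above. Sema6a rose (from 97.3 ± 19.5 to 202 ± 24 CPM, adjusted p = 0.00622) and its relatives Sema6b (from 109 ± 27.7 to 38.5 ± 3.82 CPM, adjusted p = 9e-05) and Sema6d (from 66.4 ± 16.3 to 24 ± 4.57 CPM, adjusted p = 9.57e-05) fell.

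More vasoactive genes fell than rose. Of 14 nitric oxide, endothelin and apelin genes, 2 rose, 7 fell and 5 did not pass (median -1.83), and with any 1 of the 6 libraries left out 1 rose. Edn1, the gene of endothelin 1, measured 151, 277 and 126 CPM in Rspo3- and 11.4, 4.03 and 4.5 CPM in Rspo3+ libraries (log2 fold change -4.80 ± 0.78 (SE), adjusted p = 0.000105). Ece1, the gene of the enzyme that activates endothelins, measured 791, 842 and 701 CPM in Rspo3- and 2006, 1952 and 2156 CPM in Rspo3+ libraries and rose (log2 fold change 1.39 ± 0.17 (SE), adjusted p = 5.66e-06). Ddah2 fell (from 164 ± 10.48 to 28.9 ± 6.43 CPM, adjusted p = 6.65e-07). Of 14 tested genes of sphingosine and lysophosphatidate signaling, none rose by edgeR and 6 fell. Among them were S1pr3 (from 42.5 ± 11.5 to 6.13 ± 4.03 CPM, adjusted p = 6.92e-05), Lpar6 (from 128 ± 37.2 to 20.7 ± 5.25 CPM, adjusted p = 9.71e-07) and Plpp3 (from 1771 ± 153 to 478 ± 35.6 CPM, adjusted p = 2.93e-07). Of 6 tested adrenomedullin genes only Ackr3, which rose, and Ramp3, which fell (from 72.1 ± 4.62 to 5.1 ± 2.84 CPM, adjusted p = 0.000353), passed.

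Genes that act on immune cells went both ways. Of 24 chemokine and decoy receptor genes, 4 rose, 10 fell and 10 did not pass (median -1.002). Ackr2, a decoy receptor of lymphatic vessels that removes inflammatory CC chemokines, measured 16.8, 24 and 20.1 CPM in Rspo3- and 493, 551 and 503 CPM in Rspo3+ libraries, 25.4-fold higher and 1 of the 12 largest rises (log2 fold change 4.66 ± 0.48 (SE), adjusted p = 5.88e-07). Ackr1, the decoy receptor of venules, went the other way, as given above. Cx3cl1, the gene of fractalkine, fell (from 117 ± 9.9 to 16.3 ± 2.7 CPM, adjusted p = 2.05e-05), and so did Cxcl16 (from 54.6 ± 5.02 to 19.9 ± 3.33 CPM, adjusted p = 2.76e-05).

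Cytokine genes were divided, with 6 of 19 up, 4 down and 9 that did not pass (median -0.30). Il7, the survival factor of naive T cells and innate lymphoid cells, measured 11.6, 18.4 and 16.2 CPM in Rspo3- and 194, 257 and 275 CPM in Rspo3+ libraries, 15.7-fold higher (log2 fold change 3.97 ± 0.30 (SE), adjusted p = 1.17e-08). Il33, an alarmin gene, measured 49.2, 49.7 and 59.1 CPM in Rspo3- and 235, 213 and 204 CPM in Rspo3+ libraries (log2 fold change 2.04 ± 0.30 (SE), adjusted p = 3.05e-05). Lif (from 1.91 ± 1.4 to 10.7 ± 2.49 CPM, adjusted p = 0.000377) and Tslp (from 4.73 ± 1.23 to 10.3 ± 2.15 CPM, adjusted p = 0.00553) rose from low levels. Il6 measured 392, 276 and 303 CPM in Rspo3- and 63, 34.2 and 32.1 CPM in Rspo3+ libraries and fell (log2 fold change -2.91 ± 0.39 (SE), adjusted p = 1.2e-05). Csf3, the gene of the neutrophil growth factor G-CSF, measured 186, 125 and 126 CPM in Rspo3- and 10.3, 5.11 and 3.85 CPM in Rspo3+ libraries and fell (log2 fold change -4.50 ± 0.76 (SE), adjusted p = 0.000162). Il34 fell as well (from 21.3 ± 8.9 to 2.7 ± 1.11 CPM, adjusted p = 6.84e-07).

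Leukocyte adhesion genes fell together, 9 of 15 tested against 1 that rose (median -2.62). The junctional genes Jam2 (from 552 ± 92.3 to 18 ± 11.9 CPM, adjusted p = 4.01e-08) and Jam3 (from 152 ± 30.0 to 14.7 ± 1.4 CPM, adjusted p = 1.37e-08) and the lectin gene Clec14a (from 293 ± 66.1 to 26.5 ± 4.45 CPM, adjusted p = 5.86e-09) fell beside the selectins. In Jam3, 32.2% of the 31-base stretches occur in other genes, so its value is uncertain. Cd47, encoding the signal that restrains phagocytes, rose 1.75-fold (from 586 ± 87.5 to 1024 ± 111 CPM, adjusted p = 0.00055). Of antigen presentation genes, none of 7 MHC class II genes passed in edgeR's fit of all 24 libraries (median 0.44). In the fit of the 6 colonic CD31+ libraries 2 rose and in that of the 12 CD31+ libraries 1 rose, H2-Eb1 in both (adjusted p = 0.0119 and 0.00488, with 0.00488 to 0.537 over all fits). Of 13 class I and processing genes Psmb9 (from 141 ± 16.8 to 272 ± 58.5 CPM, adjusted p = 6.34e-05) and H2-T23 (from 662 ± 92 to 1107 ± 224 CPM, adjusted p = 0.0065) rose. H2-T23 did not pass with Rspo3+ library 2 left out (adjusted p = 0.0547, with 0.000402 to 0.0547 over all fits). The class II genes ran in log2 fold change from -0.12 (Cd74) to 1.00 (H2-Eb1).

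Coagulation and complement genes were divided as well, 7 up (4 without Rspo3- library 2) and 9 down of 22 tested. Of the anticoagulant and fibrinolytic genes of blood vessels, Procr, encoding the protein C receptor, measured 387, 396 and 311 CPM in Rspo3- and 39.2, 20.5 and 19.2 CPM in Rspo3+ libraries (log2 fold change -3.79 ± 0.30 (SE), adjusted p = 1.95e-08). Plat, encoding tissue plasminogen activator, measured 486, 449.5 and 419.6 CPM in Rspo3- and 124, 53.9 and 52.8 CPM in Rspo3+ libraries (log2 fold change -2.55 ± 0.40 (SE), adjusted p = 8.39e-05). Both fell. C2 (from 15.4 ± 7.25 to 86.7 ± 16.8 CPM, adjusted p = 5.26e-05) and Cd55, which protects cells from complement (from 103 ± 60.0 to 309.6 ± 60.0 CPM, adjusted p = 0.000734), rose. Cd59a, another such protein gene, fell (from 48.9 ± 3.7 to 9.33 ± 1.93 CPM, adjusted p = 1.08e-06). In C2, 44.4% of the 31-base stretches occur in other genes, so its value is uncertain.

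Lipid handling genes fell more often than they rose. Of 26, 5 rose, 9 fell and 12 did not pass (median -0.49), and the rises numbered 3 without Rspo3+ library 1 or Rspo3- library 1 or Rspo3- library 2 and 2 without Rspo3+ library 3. Scarb1, the HDL receptor, measured 636, 624 and 492 CPM in Rspo3- and 33.4, 16.1 and 17 CPM in Rspo3+ libraries, 26.3-fold lower (log2 fold change -4.72 ± 0.30 (SE), adjusted p = 1.88e-09). Pltp, a phospholipid transfer protein gene, measured 724, 835 and 764 CPM in Rspo3- and 56.5, 42.8 and 47.2 CPM in Rspo3+ libraries (log2 fold change -3.99 ± 0.30 (SE), adjusted p = 1e-08). Slc27a3 fell (from 32.5 ± 5.64 to 1.88 ± 0.342 CPM, adjusted p = 5.89e-07). Vldlr, a receptor for triglyceride-rich lipoproteins and for reelin, rose 7.73-fold, at 2.3, 3.91 and 5.61 CPM in Rspo3- and 34.6, 29.3 and 27.8 CPM in Rspo3+ libraries (adjusted p = 3.14e-05). Reln and Gpihbp1 rose in the same cells, as given above.

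Of 15 solute carriers and channels, 3 rose, 7 fell and 5 did not pass. Slc2a1, the glucose carrier GLUT1, measured 143, 124 and 149 CPM in Rspo3- and 24.5, 26.1 and 28.1 CPM in Rspo3+ libraries (log2 fold change -2.40 ± 0.19 (SE), adjusted p = 2.16e-08). Slc16a3, a lactate carrier gene (from 28.9 ± 1.93 to 5.06 ± 2.15 CPM, adjusted p = 1.16e-05), and Slc3a2, a subunit of amino acid carriers (from 654 ± 52.6 to 181 ± 32.6 CPM, adjusted p = 8.54e-07), fell too. Slc22a3, an organic cation carrier gene, measured 1.05, 0.772 and 0.474 CPM in Rspo3- and 26.9, 33.8 and 40.7 CPM in Rspo3+ libraries, 44-fold higher (log2 fold change 5.46 ± 0.72 (SE), adjusted p = 1.91e-05). Slco2b1 (from 213 ± 10.2 to 517 ± 36.4 CPM, adjusted p = 0.000377) and Slco3a1 (from 215 ± 24.7 to 350.4 ± 22.9 CPM, adjusted p = 0.00152) rose. The last 2 are relatives of Slco2a1, which fell.

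Of 17 tested eicosanoid genes, 1 rose, 6 fell and 10 did not pass, and the rises numbered 2 without Rspo3- library 3. Ptgs1, the gene of cyclooxygenase 1, measured 193, 196 and 187 CPM in Rspo3- and 22.7, 10.7 and 14.4 CPM in Rspo3+ libraries, 12.1-fold lower (log2 fold change -3.60 ± 0.26 (SE), adjusted p = 7.2e-09). Ptger4 (from 24.8 ± 12.6 to 6.15 ± 2.85 CPM, adjusted p = 5.27e-05) and Ptgir (from 7.81 ± 1.85 to 1.32 ± 0.685 CPM, adjusted p = 5.05e-05), both receptor genes, fell. Ptger2, another prostaglandin E2 receptor gene, rose (from 2.09 ± 1.1 to 15.8 ± 5.12 CPM, adjusted p = 5.34e-05). Of 11 tested genes of retinoic acid metabolism 1 rose and 6 fell. Rdh10, which makes retinal (from 49.97 ± 25.2 to 17.1 ± 2.18 CPM, adjusted p = 0.00017), and Cyp26b1, which degrades retinoic acid (from 19.6 ± 17.2 to 1.39 ± 1.51 CPM, adjusted p = 0.00366), were among those that fell. Falls numbered 3 without Rspo3+ library 2 and 2 without Rspo3- library 3, rises 0 without Rspo3+ library 2 or Rspo3+ library 3 or Rspo3- library 2 or Rspo3- library 3.

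Junction and matrix genes followed. Of 19 junction genes, 1 rose, 7 fell and 11 did not pass. Jup, encoding plakoglobin, was the gene that rose, at 222, 177 and 203 CPM in Rspo3- and 521, 467 and 557 CPM in Rspo3+ libraries (log2 fold change 1.36 ± 0.19 (SE), adjusted p = 1.61e-05). Of 22 basement membrane genes, 5 rose, 8 fell and 9 did not pass (median -0.81). Col18a1, whose product yields endostatin, measured 164, 141 and 237 CPM in Rspo3- and 1060.1, 941 and 1358 CPM in Rspo3+ libraries, 6.2-fold higher (log2 fold change 2.63 ± 0.32 (SE), adjusted p = 4.38e-06). Col15a1, the gene of its nearest relative, measured 68.3, 75.3 and 80.1 CPM in Rspo3- and 4.93, 5.63 and 5.36 CPM in Rspo3+ libraries, 14-fold lower (log2 fold change -3.81 ± 0.35 (SE), adjusted p = 1.28e-07). The laminin genes split likewise: Lama4 (from 284 ± 54.4 to 711 ± 83.4 CPM, adjusted p = 0.00201) rose. Lama3 (from 45.8 ± 9.96 to 1.06 ± 0.971 CPM, adjusted p = 5.48e-05) and Lama5 (from 62.8 ± 8.73 to 7.62 ± 2.36 CPM, adjusted p = 3.92e-06) fell. Sparc fell (from 2366 ± 349 to 363 ± 93.4 CPM, adjusted p = 5.15e-07) and Nid2 rose (from 113 ± 9.94 to 268 ± 45.8 CPM, adjusted p = 0.00304).

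Of 21 integrin genes, 3 rose, 8 fell and 10 did not pass (median -1.14). Beside Itga9, the subunit genes Itgav (from 35.2 ± 9.06 to 102 ± 23.1 CPM, adjusted p = 0.000411) and Itgb3 (from 21.3 ± 3.75 to 57.9 ± 11.7 CPM, adjusted p = 0.00179), which form the vitronectin receptor, rose. Itga1 (from 359.9 ± 70.2 to 144 ± 11.8 CPM, adjusted p = 6.83e-05), Itga3 (from 44.4 ± 5.78 to 4.23 ± 3.87 CPM, adjusted p = 0.00031) and Itgb5 (from 115 ± 41.8 to 28 ± 6.33 CPM, adjusted p = 8.02e-06) were among those that fell.

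Immediate early genes were lower in Rspo3+ cells. Of 18 immediate early and heat shock genes, none rose by edgeR, 14 fell and 4 did not pass (median -1.40). This count does not separate the 2 kinds, and the heat shock genes among the 15 highest by TPM in either group did not pass. Fos, a subunit of AP-1, measured 9250.1, 8620.1 and 7999.8 CPM in Rspo3- and 1827, 2809 and 2052 CPM in Rspo3+ libraries (log2 fold change -1.95 ± 0.21 (SE), adjusted p = 8.54e-07). Nr4a1, a nuclear receptor gene, measured 1412, 1137 and 1210.1 CPM in Rspo3- and 251, 157 and 209 CPM in Rspo3+ libraries (log2 fold change -2.61 ± 0.25 (SE), adjusted p = 2.12e-07). Egr2 (from 237 ± 29 to 48.1 ± 9.23 CPM, adjusted p = 9.37e-09) and Zfp36, encoding an RNA-binding protein that destabilizes cytokine RNA (from 4698 ± 739 to 1219 ± 66.9 CPM, adjusted p = 1.56e-06), fell as well. In all 4 the groups did not overlap. Such genes are induced within minutes of stimulation or stress.

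This group differed between the tissues. Of 19050 genes, 1.93% had a change between Rspo3+ and Rspo3- CD31+ cells that differed between colon and small intestine by the interaction test, and among the 18 genes 10 did. The 367 genes of the whole table that passed this test numbered 233 without Rspo3- library 1 and 809 with DESeq2. In the small intestine, the Rspo3- and Rspo3+ CD31+ cells had 6347 ± 606 and 8988 ± 1308 CPM of Fos, and the gene did not pass there (log2 fold change 0.50, adjusted p = 0.0909). The test of the difference gave a difference of the log2 fold changes -2.45 ± 0.29 (SE), adjusted p = 0.000118. For Egr2 the small intestinal values were 81 ± 12.8 and 53.7 ± 0.503 CPM (difference of the log2 fold changes -1.70 ± 0.23 (SE), adjusted p = 0.000412). For Zfp36 they were 4552 ± 462 and 4597 ± 1028 CPM (difference of the log2 fold changes -1.96 ± 0.30 (SE), adjusted p = 0.00124). Nr4a1 fell in the small intestine too (log2 fold change -1.43, adjusted p = 0.000178), and its difference between the tissues did not pass (adjusted p = 0.0788).

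Interferon response genes gave a further difference between the tissues. In the colon, 5 of 24 rose and 10 fell (median -0.39), and in the small intestine, where 20.1% of genes tested passed in either direction, 12 rose and 2 fell. In 6 of the 24 the change differed between the tissues. Isg15, encoding a ubiquitin-like protein, measured 313, 194 and 202 CPM in Rspo3- and 78.8, 92.9 and 82.4 CPM in Rspo3+ libraries and fell in the colon (log2 fold change -1.48 ± 0.21 (SE), adjusted p = 2.42e-05). The small intestinal groups had 82.4 ± 11.1 and 133 ± 7.48 CPM (log2 fold change 0.69, adjusted p = 0.0211). The test of the difference gave a difference of the log2 fold changes -2.17 ± 0.29 (SE), adjusted p = 0.000412. Oasl2 (from 82.3 ± 13.7 to 30.8 ± 1.63 CPM, adjusted p = 4.03e-06), Oas2 (from 22.3 ± 6.02 to 2.07 ± 0.389 CPM, adjusted p = 1.13e-05) and Irf1 (from 1629.9 ± 309 to 519.9 ± 45.6 CPM, adjusted p = 5.6e-06) fell in the colon. Zbp1, a sensor of nucleic acids, measured 24.2, 30.0 and 28.4 CPM in Rspo3- and 166, 194 and 154 CPM in Rspo3+ libraries and rose (log2 fold change 2.64 ± 0.24 (SE), adjusted p = 1.45e-07), as it did in the small intestine (log2 fold change 2.93, adjusted p = 4.56e-08). Bst2 (from 234 ± 16.8 to 445 ± 99.8 CPM, adjusted p = 0.00022) rose.

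**Figure D4:**
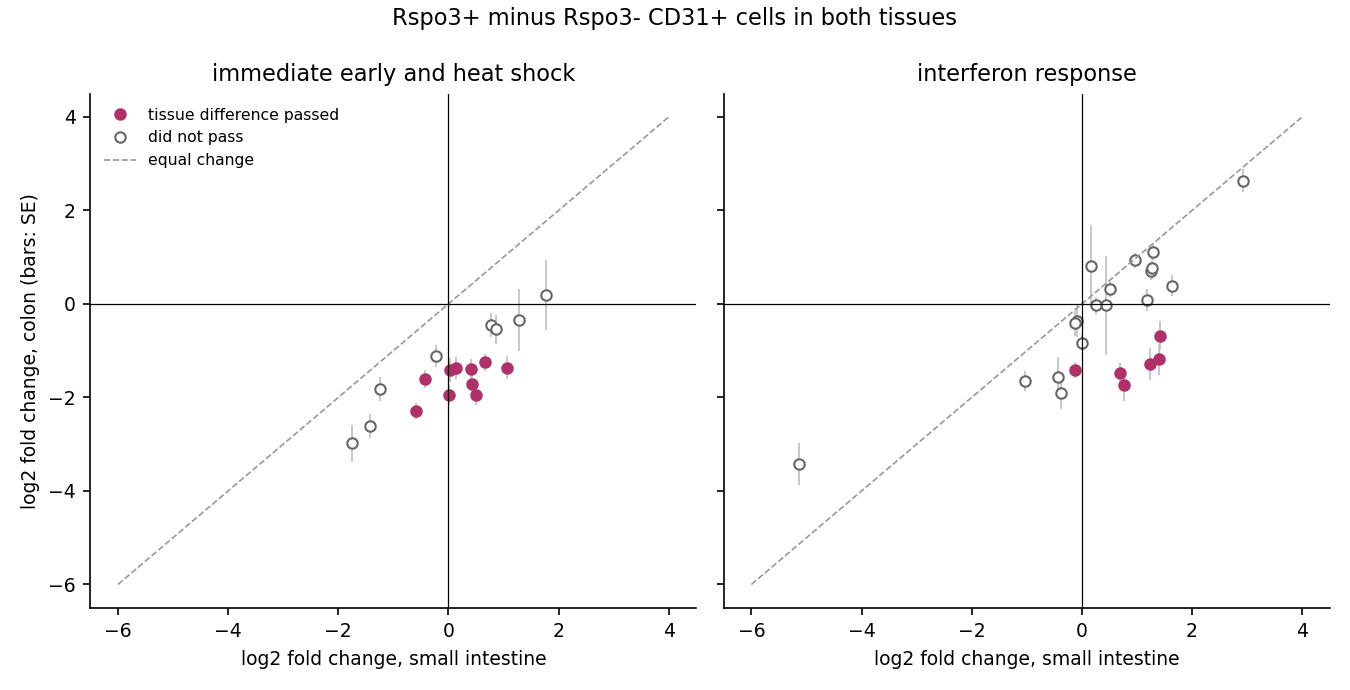
Log2 fold change between Rspo3+ and Rspo3- CD31+ cells in the small intestine (horizontal) and in the colon (vertical, bars are SE) for each gene of 2 lists; the dashed line marks equal change. Filled points, 10 of 18 immediate early and heat shock genes and 6 of 24 interferon response genes, passed the test of the difference, and all lie below the dashed line.

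Most rises and falls were seen in both tissues. In the colon, 53.1% of the genes that rose also rose in the small intestine, and these were 54.8% of the genes that rose there. The shares for falls were 54.9% and 69.0%. Of the lymphatic identity genes, 17 of the 20 rose in the small intestine and 1, Fgl2, differed in its change (difference of the log2 fold changes 1.46 ± 0.30 (SE), adjusted p = 0.0126). In the small intestine Fgl2 had 1148 ± 316 and 4585 ± 477 CPM. Among the genes with the smallest p for a difference between the tissues were Capg and Nedd9. Capg, encoding an actin-capping protein, went from 144 ± 1.92 to 109 ± 20.7 CPM in the colon and 97.3 ± 10.8 and 10.3 ± 1.67 CPM in the small intestine. Nedd9, a scaffold protein gene, went from 236 ± 38 to 67 ± 2.47 CPM in the colon and 145 ± 11.3 and 274 ± 52.5 CPM in the small intestine.

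Few cell cycle genes changed. Of 18, none rose by edgeR (1 at an unadjusted p under 0.05, 1 with DESeq2 and 1 with limma voom) and 1, Pcna, fell (from 262 ± 37.8 to 94.5 ± 19.1 CPM, adjusted p = 2.42e-06). Mki67, the proliferation marker, measured 1.95, 1.5 and 2.37 CPM in Rspo3- and 6.49, 2.43 and 4.77 CPM in Rspo3+ libraries (adjusted p = 0.188). Top2a measured 7.64, 9.7 and 6.77 CPM in Rspo3- and 15, 3.58 and 9.64 CPM in Rspo3+ libraries (adjusted p = 0.853). Hox genes record position along the body axis. Of 33 tested, 4 rose (12.1%, against 9.52% of all genes), 8 fell (24.2%, against 13.6%) and 21 did not pass. With 1 library left out, 3 to 4 rose and 6 to 7 fell. Hoxd8 measured 40.9, 39 and 33.5 CPM in Rspo3- and 82.3, 89.5 and 85.6 CPM in Rspo3+ libraries (log2 fold change 1.18 ± 0.25 (SE), adjusted p = 0.00159). Hoxd9 measured 7.04, 7.96 and 8.15 CPM in Rspo3- and 40.9, 58.8 and 39.6 CPM in Rspo3+ libraries (log2 fold change 2.59 ± 0.56 (SE), adjusted p = 0.00197). Both rose. Hoxa5 (from 24.6 ± 4.57 to 9.31 ± 2.23 CPM, adjusted p = 0.00246), Hoxa10 (from 26.8 ± 6.56 to 4.74 ± 0.229 CPM, adjusted p = 0.00205) and Hoxa11 (from 10.46 ± 3.59 to 1.96 ± 0.476 CPM, adjusted p = 0.000301) fell. In Hoxa11, 33.9% of the 31-base stretches occur in another gene, so its value is uncertain.

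Markers of other cell types were summed per library to show what else the gate held. Pericytes are the mural cells of capillaries, and their 10 markers summed to 1132, 848 and 1024 CPM in the Rspo3- libraries and 169, 169 and 185 CPM in the Rspo3+ libraries. Of the 10, 9 fell and Kcnj8 rose. Rgs5, a regulator of G protein signaling in these cells, measured 566, 309.9 and 448 CPM in Rspo3- and 25.3, 14.5 and 14.8 CPM in Rspo3+ libraries (log2 fold change -4.60 ± 0.34 (SE), adjusted p = 9.3e-09). Pdgfrb measured 143, 85.9 and 162 CPM in Rspo3- and 16.5, 7.42 and 14.1 CPM in Rspo3+ libraries (log2 fold change -3.36 ± 0.47 (SE), adjusted p = 2.32e-05). Kcnj8, a potassium channel subunit, measured 42.9, 35.5 and 59.9 CPM in Rspo3- and 61.4, 86.3 and 81.1 CPM in Rspo3+ libraries and rose (adjusted p = 0.0138). That call was lost with Rspo3+ library 2 or 3 or Rspo3- library 1 or 2 left out (adjusted p = 0.0677, 0.0512, 0.0593 and 0.0838, with 0.00255 to 0.0838 over all fits). The pericyte sum thus moved with the blood endothelial genes, and its part in their fall was not tested.

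Smooth muscle markers summed to 949, 949.9 and 1513 CPM and 635, 532 and 518 CPM. Of 12, 10 fell, among them Acta2 (from 339 ± 117 to 88.5 ± 27 CPM, adjusted p = 0.000181), Des (from 67.6 ± 7.47 to 12.4 ± 5.51 CPM, adjusted p = 7.83e-05) and Myh11 (from 143 ± 43.6 to 36.6 ± 12.9 CPM, adjusted p = 0.00272). Smtn rose (from 175 ± 6.6 to 264 ± 11.9 CPM, adjusted p = 0.011). Fibroblast markers summed to 1599.7, 2177 and 10365 CPM and 4674, 1909.5 and 2577 CPM, so that Rspo3- library 3 was the highest and the groups overlapped. Of 12 fibroblast markers none rose by edgeR and 2 fell, Postn (from 469.7 ± 429 to 184 ± 7.46 CPM, adjusted p = 0.0202) and Serpinf1 (from 45.9 ± 19.1 to 20.1 ± 14.2 CPM, adjusted p = 0.0383). Without Rspo3- library 3 both calls were lost (adjusted p = 0.576 and 0.212), and Dpt, which had not passed (adjusted p = 0.905), was higher in Rspo3+ cells (log2 fold change 1.60, adjusted p = 0.00287). Over all their fits the adjusted p of Postn ran from 0.000794 to 0.576, that of Serpinf1 from 0.0015 to 0.212 and that of Dpt from 0.00287 to 1.

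Epithelial markers summed to 417, 177 and 1127 CPM and 431, 89 and 382 CPM, and B and plasma cell markers, most of them the immunoglobulin genes Igha, Igkc and Jchain, to 2395, 1769.5 and 5738 CPM and 4391, 730.3 and 4974 CPM. In neither list did the groups separate. T and NK cell markers stayed between 0.831 and 7.89 CPM. The 7 mesothelial markers summed to 87, 36.1 and 182 CPM and 74.9, 12.2 and 63.4 CPM, and the groups overlapped. Of these markers, Msln, Upk3b, Wt1 and Lrrn4 were at 0 in all Rspo3+ libraries. Another was at 0 in all Rspo3- libraries but not in all Rspo3+ libraries. The marker genes of interstitial cells of Cajal summed higher in Rspo3+ libraries, 176, 174 and 169 CPM against 104, 77.3 and 132 CPM. This sum was made by Prkcq, at 4.54, 8.15 and 5 CPM in Rspo3- and 146, 161 and 145 CPM in Rspo3+ libraries (log2 fold change 4.67 ± 0.37 (SE), adjusted p = 1.73e-08). Kit, which defines these cells, was at 15.5, 10.7 and 15.3 CPM in Rspo3- and 3.97, 1.21 and 4.55 CPM in Rspo3+ libraries. It did not pass (adjusted p = 0.0518) but did, as lower, in 6 of 14 alternatives (adjusted p = 0.00259 to 0.184 over all fits). Another marker of these cells, Ano1, fell (from 50.2 ± 15.6 to 5 ± 2.39 CPM, adjusted p = 5.54e-05).

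**Figure D5:**
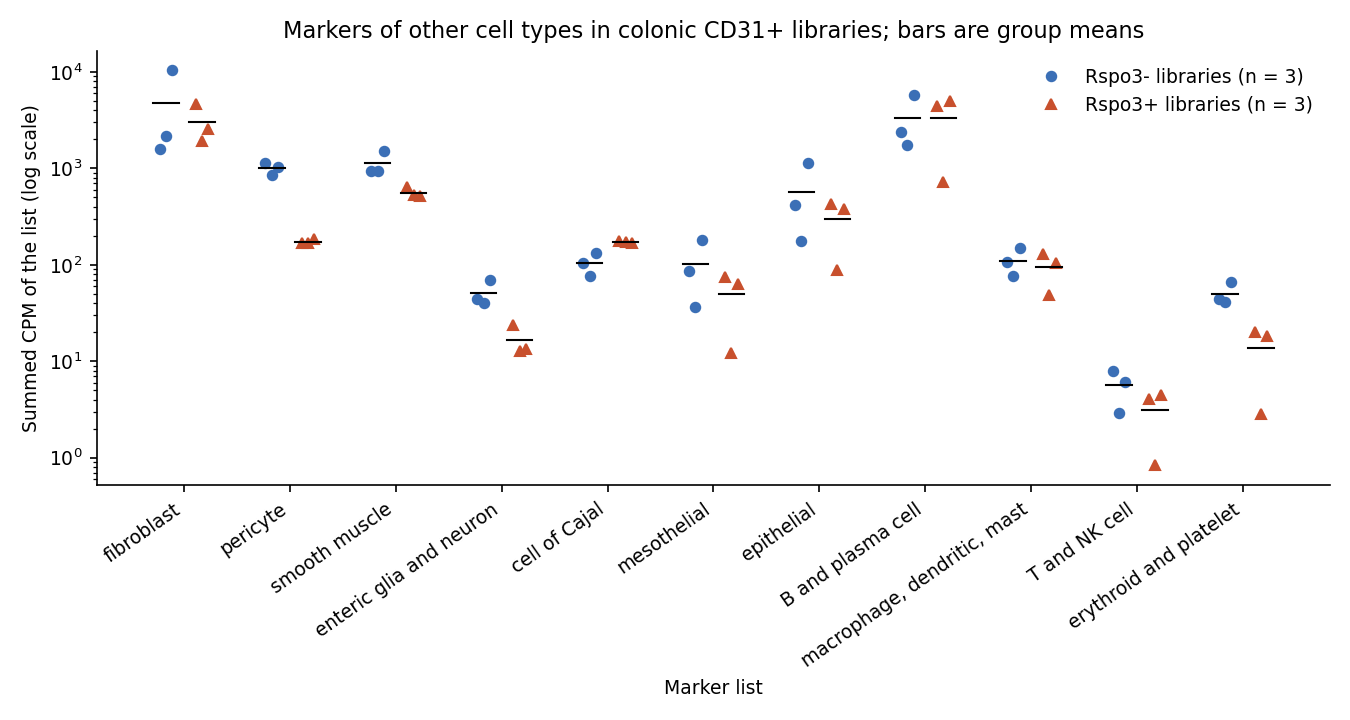
Summed CPM (log scale, vertical) of the markers of 11 other cell types in each Rspo3- (circles) and Rspo3+ (triangles) library, with short lines at the means of 3 libraries. Pericyte, smooth muscle, enteric glia and erythroid sums are higher in all 3 Rspo3- libraries, and the fibroblast sum is set apart in Rspo3- library 3.

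The largest changes named further genes. Among the 12 largest rises, beside Rspo3, Ackr2, Slc22a3 and Prkcq, was Pld5, at 0.2, 0.531 and 0 CPM in Rspo3- and 16.2, 13.2 and 18.9 CPM in Rspo3+ libraries (log2 fold change 6.03 ± 1.21 (SE), adjusted p = 0.001). Alox12e (from 1.35 ± 0.538 to 57.4 ± 11.6 CPM, adjusted p = 2.71e-05) and Apba2, a synaptic adaptor gene (from 1.99 ± 0.774 to 67.2 ± 11.8 CPM, adjusted p = 1.17e-08), belonged to them. Tnfaip8l3 (from 4.04 ± 1.65 to 105 ± 11.4 CPM, adjusted p = 2.32e-08), Susd4, encoding a complement inhibitor (from 3.21 ± 1.33 to 78.1 ± 9.65 CPM, adjusted p = 4.94e-05), and Edaradd (from 0.481 ± 0.248 to 14.7 ± 1.96 CPM, adjusted p = 0.000219) completed the described genes. Fam205a4 and a Ccl21b copy, also among the 12, share most of their sequence with other genes and are not described. Alox12e rose and Alox12, its relative, fell.

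Among the 12 largest falls, beside Gja5 and Lhx6, was Epha4, an ephrin receptor, at 39.9, 36.6 and 18.4 CPM in Rspo3- and 0, 0.32 and 0.271 CPM in Rspo3+ libraries (log2 fold change -7.28 ± 1.02 (SE), adjusted p = 2.14e-05). Enpp6 (from 76.8 ± 11 to 1.06 ± 0.174 CPM, adjusted p = 0.00015) and Mcf2l, an exchange factor for small GTPases (from 212 ± 57.2 to 3.26 ± 1.4 CPM, adjusted p = 4.31e-07), were others of the 12. Plscr2 (from 182 ± 40.0 to 3.15 ± 1.65 CPM, adjusted p = 6.6e-08), Scgb3a1 (from 67 ± 16.4 to 1.16 ± 0.915 CPM, adjusted p = 5.1e-07), Efr3b (from 48.1 ± 6.78 to 0.656 ± 0.469 CPM, adjusted p = 2.32e-08) and Fam167b (from 18.1 ± 4.6 to 0.234 ± 0.406 CPM, adjusted p = 0.000829) fell, and so did Ankrd29 (from 23 ± 5.73 to 0.343 ± 0.247 CPM, adjusted p = 3.19e-07) and Lrrc3b (from 40.1 ± 13.4 to 0.618 ± 0.406 CPM, adjusted p = 8.13e-05). Slc28a2, a nucleoside carrier gene (from 64 ± 16.1 to 0.72 ± 0.611 CPM, adjusted p = 0.000747), shares 46.3% of its 31-base stretches with other genes.

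The genes with the smallest adjusted p named others again. Dlg1, a scaffold protein of cell polarity, measured 62.9, 61.7 and 51.6 CPM in Rspo3- and 456, 446 and 444 CPM in Rspo3+ libraries (log2 fold change 2.93 ± 0.19 (SE), adjusted p = 2.27e-09). Col23a1, a transmembrane collagen gene, measured 20.7, 20.6 and 24.6 CPM in Rspo3- and 373, 370.4 and 388 CPM in Rspo3+ libraries (log2 fold change 4.10 ± 0.26 (SE), adjusted p = 2.27e-09). Kcnn3, a calcium-activated potassium channel gene (from 14.2 ± 2.37 to 154 ± 26.2 CPM, adjusted p = 2.57e-09), Rnf141 (from 39.5 ± 4.85 to 179.8 ± 11.6 CPM, adjusted p = 1.73e-09) followed, and then Abhd17b (from 57.7 ± 5.39 to 242 ± 15.3 CPM, adjusted p = 2.65e-09) and Sh3glb2 (from 57.2 ± 4.2 to 257 ± 20.5 CPM, adjusted p = 5.15e-09). Among the falls, beside Nkx2-3 and Scarb1, was Il4ra, the receptor of interleukin 4, at 271, 261 and 252 CPM in Rspo3- and 41.4, 36.2 and 35.7 CPM in Rspo3+ libraries (log2 fold change -2.79 ± 0.17 (SE), adjusted p = 1.73e-09). Stom (from 426 ± 43.8 to 26.3 ± 10.51 CPM, adjusted p = 1.73e-09), Ehd3 (from 319 ± 43.2 to 26.4 ± 6.07 CPM, adjusted p = 1.11e-09) and Ehd4 (from 730.0 ± 124 to 109 ± 4.11 CPM, adjusted p = 1.73e-09) fell with similarly small p. Others of this set were Emp2 (from 162 ± 20.7 to 10.3 ± 2.16 CPM, adjusted p = 9.2e-10), Cdc42ep4 (from 269 ± 45.7 to 19.4 ± 4.33 CPM, adjusted p = 3.29e-10), Swap70 (from 330.1 ± 60.9 to 48.1 ± 1.28 CPM, adjusted p = 9.2e-10) and Apbb2 (from 286 ± 48.2 to 29.9 ± 2.4 CPM, adjusted p = 3.29e-10). Ehd3 and Ehd4 encode relatives that act in membrane recycling, and both fell without overlap between the groups.

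Per length, the most abundant transcripts of the fractions overlapped in housekeeping genes. B2m, the light chain of MHC class I, stood at 14604 ± 887 TPM in Rspo3- and 17196 ± 839.8 TPM in Rspo3+ cells, and Tmsb4x, encoding thymosin beta 4, at 9313 ± 11.8 TPM and 15941 ± 1245 TPM. Plvap (9436 ± 1417 TPM) and Igfbp7, encoding a secreted growth factor binding protein (8431 ± 875 TPM), were among the 15 highest in Rspo3- cells only, and Ccl21a, Lyve1 (3664 ± 189 TPM) and Fth1, the ferritin heavy chain (11989 ± 1316 TPM), in Rspo3+ cells only. Igfbp7 fell 12.7-fold (adjusted p = 1.23e-08) and Fth1 rose 3.56-fold (adjusted p = 1.09e-05), while Ftl1, the ferritin light chain, did not pass (from 3112 ± 338 to 2124 ± 247 CPM, adjusted p = 0.0703). In Ftl1, 64.15% of the 31-base stretches occur in other genes, so its value is uncertain.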

How the data were processed

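CD31+ Rspo3+ and CD31+ Rspo3- cells of the mouse colon (3 libraries each) were read from the deposited whole-series tables of RNA-seq with SMART-Seq v4, a full-length kit without strand information. The submitters' processing notes list Salmon 1.3.0, R 4.0.1 and the genome build mm10. The deposited estimated counts were rounded to whole counts, and the log2(TPM + 1) values deposited by the authors gave the TPM. In the 24 libraries 402 values had a TPM above 0 where the count was 0. Gene IDs were matched to GENCODE symbols (54166 of 54418, 99.5%). Columns name the group but not the replicate, so libraries 1, 2 and 3 follow column order and were not treated as paired.

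Genes were tested with edgeR 4.0.16 in R 4.3.3 (quasi-likelihood F test, TMM, filterByExpr with a minimum count of 10 and a minimum total of 15) on all 24 libraries with 1 mean for each of the 8 groups. P-values were adjusted by Benjamini-Hochberg over 19050 genes, with a threshold of 0.05. The SE of a log2 fold change is its absolute value divided by the square root of the F statistic. It is thus derived from the test rather than fitted, and is approximate. The tissue difference was the interaction of fraction and tissue in the same fit. The biological coefficient of variation was 0.43 and the median prior degrees of freedom 3.50. Replicate libraries differed by 30.0 to 77.0 times the chi-square of counting noise per degree of freedom, so none was a copy of another. On simulated data (17408 genes, 200 of them changed), 27% of 2-fold and 67% of 4-fold changes were recovered in 95 calls, of which 1.05% were false. Apart from the 200 genes, all 24 libraries were simulated around the same means. In the data 23.1% of genes were called, a far larger share, so these rates need not hold for this comparison. Precision is that of 15070923 to 22899519 counts a library.

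The alternatives were DESeq2 size factors, DESeq2 1.42.0, limma 3.58.1 with voom, no filter, a filter of 1 CPM in 3 libraries, fits of the 6 or 12 CD31+ libraries, limma on log2(TPM + 1), and each of the 6 libraries left out. The comparison and the 51 gene lists were chosen with earlier results of these data known. Genes were named by rule: the genes of the sort, the 12 largest rises and falls without overlap and with at least 10 CPM, the 10 rises and falls of the smallest adjusted p, the 15 highest TPM of each group, the 10 smallest p of the tissue difference, the members of endothelial and niche lists, up to 4 members of other lists in each direction, and markers that define a cell type. Gm48159, Gm21541, Dpt, Igha, Lrrn4, Msln and Top2a were chosen after their values were seen. Results for a few genes of the lists are not reported here, although the list counts include them.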

Additional observations from a re-analysis of the deposited data

Results flagged for a closer look

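The 34 genes of this section, all named above, come from 316 named genes. Their change between Rspo3+ and Rspo3- CD31+ cells differed between colon and small intestine by edgeR's interaction test (adjusted p under 0.05). Over all genes tested the share was 1.93%. Some genes were named for their small p in this same test, so the share among named genes cannot be set against it. Values are the log2 fold change in the colon minus that in the small intestine. Genes with a positive log2 fold change in both tissues, larger in the colon, were Apba2 (1.85), Prkcq (1.77), Il7 (1.75), Fgl2 (1.46) and Sh3glb2 (0.84). Genes with a negative log2 fold change in both tissues, smaller in size in the colon, were Capg (2.83), Lama5 (2.73), Plat (2.69), Ptgir (2.54), Fbln5 (2.13), Ly6a (1.91), Ly6c1 (1.85), Stom (1.78), Cd34 (1.63) and Cd59a (1.39). Genes with a positive log2 fold change in the colon and a negative one in the small intestine were Stmn2 (4.09), Tgfbi (2.71) and Fstl1 (1.26). Genes with a negative log2 fold change in both tissues, larger in size in the colon, were Apcdd1 (-2.53), Fabp4 (-2.52), Egr2 (-1.70), Slc2a1 (-1.59), Tcf15 (-1.48), Oasl2 (-1.29) and Pcna (-1.18). Genes with a positive log2 fold change in both tissues, smaller in the colon, were Kcnj8 (-3.17) and Smtn (-1.09). Genes with a negative log2 fold change in the colon and a positive one in the small intestine were Hoxa10 (-7.02), Nedd9 (-2.73), Fos (-2.45), Isg15 (-2.17), Zfp36 (-1.96), Gja1 (-1.40) and Icam1 (-1.28). For Nedd9 the log2 fold change was -1.81 in the colon and 0.92 in the small intestine, with an adjusted p for the difference of 8.39e-05. For Kcnj8 the log2 fold change was 0.73 in the colon and 3.89 in the small intestine, with an adjusted p for the difference of 1.28e-05. Hoxa10 had 0 CPM in all Rspo3- and 0.143 ± 0.248 CPM in Rspo3+ cells of the small intestine, so its fitted difference depends on the prior count and its size is not a measurement.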

How the results depend on the processing

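No paired analysis was possible because the columns carry no replicate number of the labels. With 1 library left out, the genes that rose numbered 1216 to 1854 and those that fell 2028 to 2308, against 1814 and 2591. Under the other alternatives they numbered 1317 to 2152 and 2147 to 2992, and the share of calls that were rises was 35.9% to 46.5% over all alternatives, against 41.2%. The median log2 fold change over all genes ran from -0.07 to 0.03. No gene called in the fit of all libraries was called in the other direction under any alternative. The count of genes whose change differed between the tissues, 367, was 809 with DESeq2 and 233 to 374 with 1 library left out, the lowest without Rspo3- library 1, and the cause was not tested. Lymphatic identity genes that rose and general blood endothelial, arterial, capillary and venous genes that fell kept counts within 1.5 times under every alternative. Of 243 named genes that passed, 223 passed in the same direction in all 14 alternatives that could test them. Of 73 named genes that did not pass, 16 passed in at least 1 alternative, so a gene that did not pass is not thereby shown to be unchanged. The log2 fold change of the fibroblast marker Dpt, -0.13, ran from -0.60 to 1.60 with 1 library left out, the highest without Rspo3- library 3. Low counts limit the precision for genes such as Wnt16, Rspo1 and Lgr5. With 3 libraries a group and a spread this wide, most 2-fold changes were not recovered in the simulated data. A far smaller share of genes was changed there than was called here, so that recovery need not hold for this comparison.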

Other observations

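Traces of nerve, blood and myeloid cells were small in both fractions. Of 10 markers of enteric glia and neurons, 2 fell in Rspo3+ cells, among them Uchl1, a neuronal gene (from 11.1 ± 1.46 to 3.48 ± 3.56 CPM, adjusted p = 0.0209). Uchl1 lost its call in the fit of these 6 libraries alone, in the fit of the 12 CD31+ libraries and with Rspo3+ library 2 or 3 or Rspo3- library 2 left out (adjusted p = 0.108, 0.0543, 0.102, 0.0887 and 0.0596, with 7.13e-05 to 0.108 over all fits). Sox10, which defines the glia, was at 1.65, 2.12 and 3.49 CPM in Rspo3- and 1.38, 0.831 and 0.65 CPM in Rspo3+ libraries and did not pass (adjusted p = 0.118). The hemoglobin gene Hba-a2 measured 18.7, 17.3 and 29 CPM in Rspo3- and 9.2, 0.639 and 6.77 CPM in Rspo3+ libraries (adjusted p = 0.176). None of 7 erythroid and platelet markers passed by edgeR in either direction, and at an unadjusted p under 0.05 the count was 3 lower and 0 higher, with 1 lower by DESeq2 and 2 by limma voom. The macrophage gene Lyz2 measured 22.4, 19.4 and 49.4 CPM in Rspo3- and 56.4, 24 and 54 CPM in Rspo3+ libraries (adjusted p = 0.685), and the mast cell genes Mcpt1 and Fcer1a were at 0 in all 6 libraries. Another gene of their list was at 0 in all Rspo3- libraries but not in all Rspo3+ libraries. In Hba-a2 and Lyz2, 92.6% and 32.8% of the 31-base stretches occur in other genes, so their values are uncertain. None of 9 tested macrophage, dendritic and mast cell markers passed by edgeR, with 2 lower and 0 higher at an unadjusted p under 0.05, 2 lower by DESeq2 and 1 by limma voom.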
